A study of Mus musculus with 6 samples.

Results

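Accessible chromatin was described at 8 chemokine and cytokine genes of mouse fibroblasts, Ccl2, Ccl7, Ccl5, Cxcl1, Cxcl5, Cxcl10, Il6 and Lif. The regions were those that the authors' table names after 1 of these genes (20 regions) and those without an assigned gene whose centre lay within 30 kb of the centre of such a region (20 regions). Together they made up 40 of the 63430 regions of the table. The measurements came from ATAC-seq, in which the transposase Tn5 cuts and tags open DNA, so that a region's read number follows its accessibility.

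All cells were NIH/3T3, an immortalised fibroblast line from mouse embryos, and all carried a CRISPR-Cas13d knock-in. Cas13d is an enzyme that a guide RNA directs to cut RNA. In the Actg1 guide group (3 libraries) the transfected guide was directed at Actg1 mRNA, which encodes gamma-actin of the cytoplasm, and in the GFP guide group (3 libraries) at GFP, as the control. The labels give neither the time after transfection nor whether the knock-in line was a clone, and each library came from 25000 cells of this 1 cell line. The series asked how accessibility changes while a targeted mRNA is being degraded, in a study of transcriptional adaptation, in which decay of an mRNA goes along with altered transcription of other genes. mRNA levels of Actg1 or of the chemokines were not measured in these data.

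Chemokines are small secreted proteins that attract leukocytes by binding G protein-coupled receptors, and their families are named after the spacing of conserved cysteines, CC or CXC. Il6 and Lif encode cytokines whose receptors share the subunit gp130 (gene Il6st) and signal through JAK kinases and Stat3. Fibroblasts are a source of these factors after infection or injury, and NF-kB, AP-1 and interferon-regulated factors are well-known activators of their promoters.

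The reference promoters of 3 of these genes are shown because the region at the transcription start site (TSS) covers each of them whole. Those of Cxcl10 and Il6 were called higher with the Actg1 guide and that of Cxcl1 was not called. The sequences are RefSeq windows of build GRCm38.p6, the same assembly as mm10, from 250 bases before to 50 bases after the TSS. Capitals mark matches to the NF-kB site (kB site), the AP-1 site TGANTCA and the interferon-stimulated response element core GAAANNGAAA.
Cxcl10 promoter, chr5:92348840-92349139, minus strand: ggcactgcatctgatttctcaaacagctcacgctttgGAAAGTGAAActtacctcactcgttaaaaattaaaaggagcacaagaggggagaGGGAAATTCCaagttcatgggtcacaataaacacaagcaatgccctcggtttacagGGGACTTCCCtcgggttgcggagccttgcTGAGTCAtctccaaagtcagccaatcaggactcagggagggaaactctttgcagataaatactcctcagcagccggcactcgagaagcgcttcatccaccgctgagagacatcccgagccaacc
Il6 promoter, chr5:30012864-30013163, plus strand: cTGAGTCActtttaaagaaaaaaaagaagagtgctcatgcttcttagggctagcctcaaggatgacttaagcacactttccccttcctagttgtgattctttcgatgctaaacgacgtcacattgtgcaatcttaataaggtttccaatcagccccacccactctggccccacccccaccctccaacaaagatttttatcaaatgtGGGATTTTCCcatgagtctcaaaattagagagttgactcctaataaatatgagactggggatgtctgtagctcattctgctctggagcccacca
Cxcl1 promoter, chr5:90890995-90891294, plus strand: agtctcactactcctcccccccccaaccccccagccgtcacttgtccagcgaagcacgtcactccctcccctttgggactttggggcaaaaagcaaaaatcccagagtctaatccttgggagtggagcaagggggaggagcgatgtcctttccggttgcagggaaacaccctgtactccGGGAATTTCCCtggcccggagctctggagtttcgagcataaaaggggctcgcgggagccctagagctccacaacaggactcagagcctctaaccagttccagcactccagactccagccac

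Both strands were searched, and positions give the first base of a match relative to the TSS on the gene's strand. The Cxcl10 window held kB sites at -159 and -103, an AP-1 site at -74 and a response element core at -213. In the Il6 window a kB site stood at -44, an AP-1 site at -249 and a C/EBP site (TTGCNNAA) at -128. Cxcl1 had overlapping kB matches at -71 and -70 and none of the other motifs searched, which also included the GAS element TTCNNNGAA, the TATA box TATAAA and the GC box GGGCGG. Among all 32851 RefSeq promoter windows of this length, 4.50% held a kB site, 7.81% an AP-1 site, 3.44% a response element core and 10.8% a C/EBP site. The GAS element was found in 8.30%, the TATA box in 13.6% and the GC box in 35.7%. Of the 8 genes, 4 matched an entry of the promoter table. Besides these 3 it held Lif, whose window overlapped the region nearest its TSS by 76 bases and held an AP-1 site at -228. Ccl2, Ccl7, Ccl5 and Cxcl5 have no sequence shown. These matches describe letters in the reference and were not tested as binding sites.

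Values below are the authors' normalized signals, given for replicates 1, 2 and 3 in that order. Estimated reads in regions lay between 5675889 and 9526172 per library. Between GFP guide replicates 1 and 2 the difference was within sampling noise, so their mean entered as 1 sample, which left 2 GFP guide samples against 3 Actg1 guide samples. The series calls them biological replicates without saying whether the cultures were separate. All p-values therefore rest on the variation among these libraries, which was near counting error in every pair and may be technical. Fold changes are log2 values of the Actg1 guide over the GFP guide from limma, fitted to log2(signal + 1) over all 61327 regions that passed a filter on low values, and called regions are those with an adjusted p under 0.05. In such bulk libraries fewer cells with an open region and less open chromatin per cell cannot be told apart. Genome-wide 41.3% of regions were called, 20.6% higher and 20.7% lower with the Actg1 guide.

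Of the 40 regions, 39 passed the filter, and with the Actg1 guide 11 of these were higher and 6 lower. That is 43.6% of those tested, near the 41.3% of all regions, so the share called does not set these genes apart. The median log2 fold change was 0.06 in these 39 regions and -0.01 over all regions, and the median size of the change was 0.32 and 0.31. Within 1 kb of a TSS, 2 of 9 regions were higher and 2 lower, where the background at promoter regions was 32.7% called, 14.0% higher and 18.7% lower. Farther regions that the table assigns to these genes had 5 higher and 1 lower of 11, where 40.7% of such regions were called genome-wide, 22.6% higher and 18.1% lower. Among the 19 tested regions without a gene 4 were higher and 3 lower, where the background was 43.9%, 22.1% higher and 21.9% lower. The libraries of the groups did not overlap in 19 of the 39 regions, beside 50.8% of all tested regions. Calls per gene were few. Cxcl10 had 4 higher, Ccl5 2 and Il6 1, with none lower. Ccl7 had 3 lower and Ccl2 1, with none higher. Lif had 3 higher and 1 lower, Cxcl5 had 1 higher and 1 lower, and Cxcl1 had none. The calls at Il6 and Ccl2 and 1 of those at Ccl5 ended when single libraries were left out. So did the calls of Ccl7 1904 bp upstream and 28.2 kb downstream of its TSS, and that of Cxcl10 33.0 kb upstream. Whether direction differs between the genes was not tested.

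**Figure D1:**
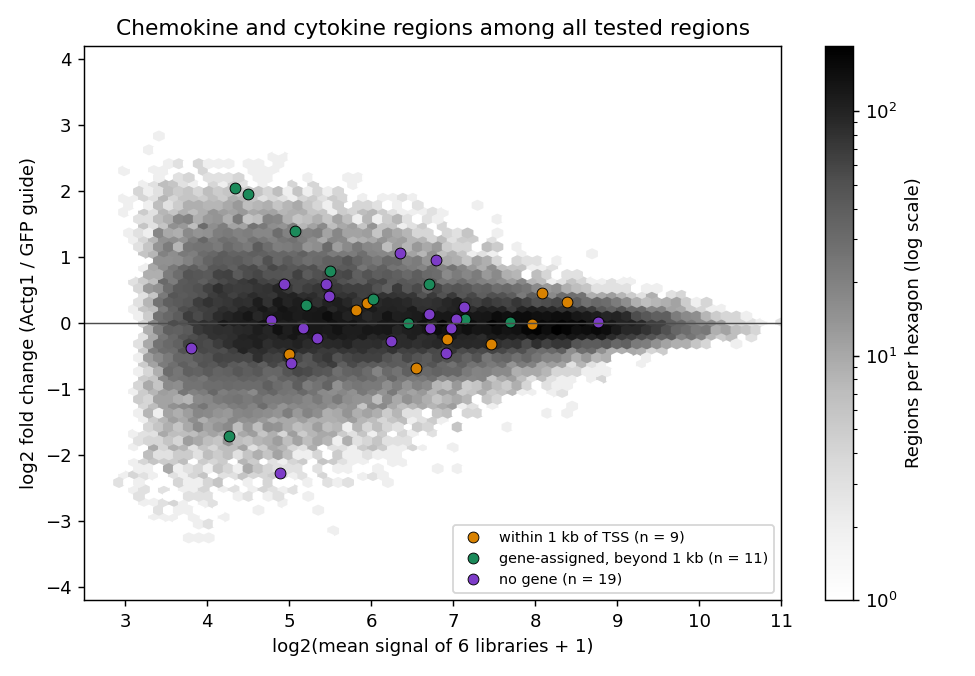
Log2 fold change (Actg1 guide over GFP guide, vertical axis) against log2 mean signal of the 6 libraries plus 1 (horizontal axis). Hexagons, shaded on a log scale from white at 1 region to black, hold the 61327 tested regions, and coloured points are the 39 tested chemokine and cytokine regions, split into those within 1 kb of a TSS (9), farther gene-assigned regions (11) and regions without a gene (19). The coloured points lie within the shaded field, and the largest changes are at low signal.

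The CC chemokine genes Ccl2 and Ccl7 stand 8.26 kb apart on chromosome 11, and both encode ligands of Ccr2 that attract monocytes. At Ccl2 (ENSMUSG00000035385, chr11:82035571-82037453, plus strand) the TSS region fell, while the other 5 regions of the locus did not pass the test. The Ccl2 TSS region (chr11:82035272-82035652, centre 109 bp upstream) had signals of 157, 145 and 167 with the Actg1 guide and 216, 181 and 189 with the GFP guide. All Actg1 guide libraries lay below all GFP guide libraries, and the log2 fold change was -0.31 (SE 0.102, limma adjusted p = 0.0125). The call depended on single libraries. Without Actg1 guide replicate 2 it ended at -0.26 (limma adjusted p = 0.0523), without GFP guide replicate 1 at -0.24 (0.0671) and without GFP guide replicate 3 at -0.34 (0.0865). With no mean-variance trend the adjusted p of limma was 0.0856.

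The table names 3 more regions after Ccl2, all upstream of the TSS, and their groups overlapped in each. At 907 bp upstream the signals were 57, 76 and 74 with the Actg1 guide and 55, 39 and 65 with the GFP guide (log2 fold change 0.30, limma adjusted p = 0.154). At 2514 bp they were 129, 150 and 154 with the Actg1 guide and 131, 131 and 146 with the GFP guide (0.06, limma adjusted p = 0.721), and at 3162 bp 80, 92 and 87 with the Actg1 guide and 74, 101 and 84 with the GFP guide (0.01, limma adjusted p = 0.971). Still farther out, the locus's region without a gene with the highest signal, 28.4 kb upstream, had 134, 127 and 135 with the Actg1 guide and 127, 129 and 125 with the GFP guide (0.06, limma adjusted p = 0.704). The other region without a gene, 23.7 kb upstream, was not called either, at 0.14. On the same side the table names 2 regions after the lincRNA gene ENSMUSG00000109297, which are not among the 40. One of them (chr11:82015098-82015478) was higher without overlap, with 169, 130 and 137 with the Actg1 guide and 92, 95 and 119 with the GFP guide (0.45, limma adjusted p = 0.00331), a call that ended without Actg1 guide replicate 1 (0.34, limma adjusted p = 0.0734) and with no trend (limma adjusted p = 0.109). The other was not called (0.45, limma adjusted p = 0.105).

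Ccl7 (ENSMUSG00000035373, chr11:82045712-82047525, plus strand) had the largest fall among the regions nearest the TSS of the 7 genes that have one within 1 kb. Its TSS region (chr11:82045510-82045862, centre 26 bp upstream) had 80, 66 and 65 with the Actg1 guide and 109, 131 and 105 with the GFP guide. The groups did not overlap, and the change was -0.67 on the log2 scale (SE 0.142, limma adjusted p = 0.000171), a call made under all 14 alternative settings. A small region of 143 bp, centred 1904 bp upstream (chr11:82043737-82043879), had 10, 12 and 4 with the Actg1 guide and 26, 26 and 31 with the GFP guide. Those Actg1 guide signals stand for about 12, 9 and 3 reads. The log2 fold change was -1.72 (SE 0.374, limma adjusted p = 0.000243), and without GFP guide replicate 3 the call ended at -1.59 (limma adjusted p = 0.0821).

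Downstream of Ccl7 lie 2 regions without a gene, both nearer to Ccl11 than to Ccl7. The one 21.4 kb away had 163, 142 and 150 with the Actg1 guide and 113, 141 and 128 with the GFP guide, and its log2 fold change of 0.25 did not pass (limma adjusted p = 0.0686). It did pass at 0.29 without Actg1 guide replicate 2 (limma adjusted p = 0.0471), at 0.33 without GFP guide replicate 2 (0.0202) and at 0.27 with equal library totals (0.047). The region 28.2 kb away had 21, 23 and 33 with the Actg1 guide and 28, 38 and 46 with the GFP guide, groups that overlapped, and a change of -0.61 on the log2 scale (limma adjusted p = 0.038). That call ended without Actg1 guide replicate 1 (-0.48, limma adjusted p = 0.162), Actg1 guide replicate 2 (-0.55, 0.119), GFP guide replicate 2 (-0.50, 0.121) and GFP guide replicate 3 (-0.38, 0.451), and with no trend (limma adjusted p = 0.12).

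Between the TSS regions of Ccl2 and Ccl7 the table lists 1 further region besides the small one, assigned to Gm17268, a predicted gene between them. It had 30, 35 and 27 with the Actg1 guide and 75, 67 and 62 with the GFP guide, so that it changed by -1.10 on the log2 scale (limma adjusted p = 1.64e-05). All 4 regions from the Ccl2 TSS to the Ccl7 TSS, over 10.6 kb, were thus lower with the Actg1 guide. This stretch was picked after its values were seen.

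Ccl5 (ENSMUSG00000035042, chr11:83525778-83530518, minus strand) encodes a chemokine that attracts T cells and monocytes. No region within 1 kb of its TSS was among those analysed here. The table assigns 2 regions to it, of which the 1 inside the gene rose and the 1 upstream did not pass. The intragenic region (chr11:83527041-83527353, 3321 bp downstream of the TSS) had 32, 32 and 31 with the Actg1 guide and 4, 8 and 8 with the GFP guide, or about 40, 24 and 25 reads with the Actg1 guide and 5, 7 and 8 with the GFP guide. The groups were far apart, by 2.04 on the log2 scale (SE 0.301, limma adjusted p = 5.17e-07), and the region stayed called under all 14 alternatives. It passed the filter on low values through the Actg1 guide libraries alone, so a difference between the groups was built in.

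The upstream Ccl5 region (chr11:83534507-83535239, 4355 bp from the TSS) was stronger and had 197, 214 and 202 with the Actg1 guide and 198, 226 and 194 with the GFP guide. Those values overlapped, and the log2 fold change was 0.01 (limma adjusted p = 0.945). The regions without a gene lay nearer to other coding genes than to Ccl5. Ccl9 was 16.3 and 8.94 kb from those 26.1 and 33.5 kb upstream. Heatr9 was 1.96 kb from that 20.8 kb downstream. Of these regions, the one 26.1 kb upstream had 31, 34 and 44 with the Actg1 guide and 27, 17 and 25 with the GFP guide (0.60, SE 0.232, limma adjusted p = 0.0359). Its call ended without Actg1 guide replicate 2 (0.63, limma adjusted p = 0.0562), Actg1 guide replicate 3 (0.45, 0.145), GFP guide replicate 2 (0.45, 0.12) and GFP guide replicate 3 (0.68, 0.12), with cyclic loess scaling (0.53, 0.0613) and with no trend (limma adjusted p = 0.0565). The region without a gene with the highest signal, 33.5 kb upstream, had 117, 119 and 131 with the Actg1 guide and 135, 106 and 138 with the GFP guide (-0.08, limma adjusted p = 0.634). The region 20.8 kb downstream was too low to be tested, with 17, 11 and 9 with the Actg1 guide and 4, 6 and 4 with the GFP guide.

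**Figure D2:**
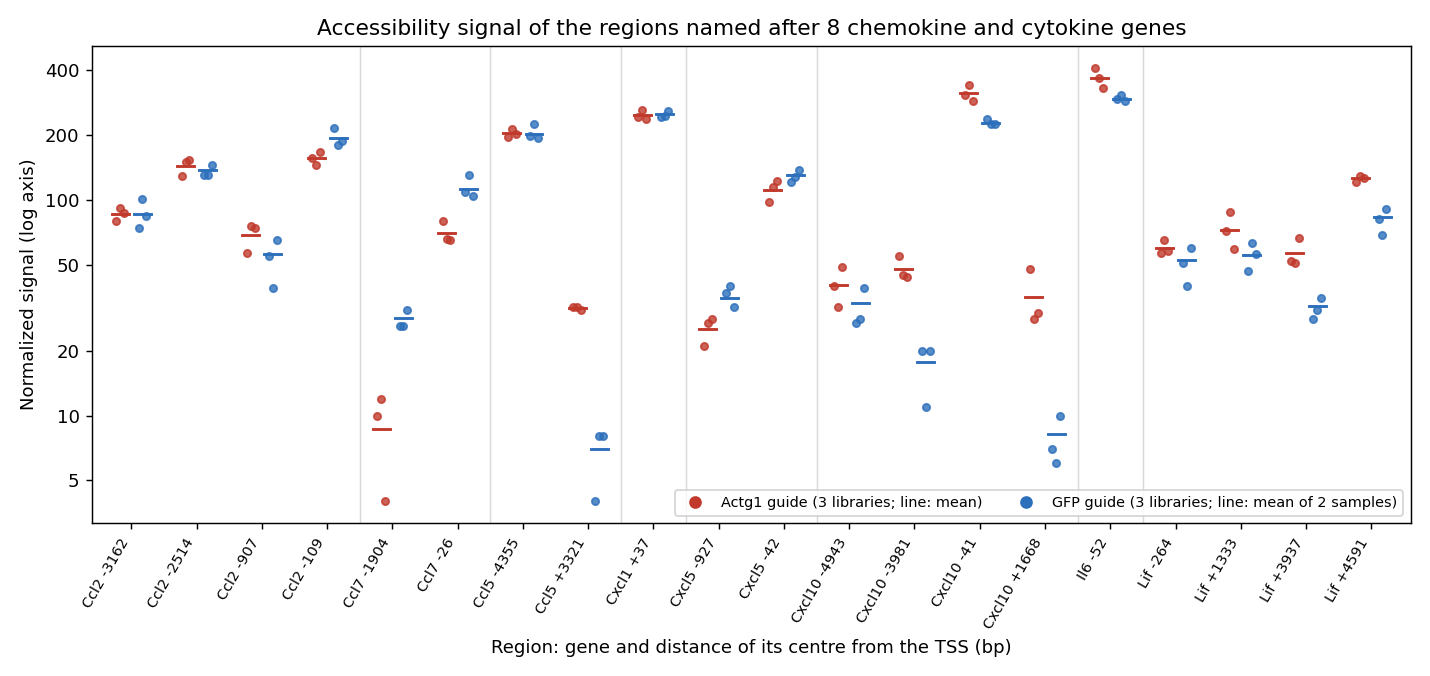
Normalized signal (log axis) of the 20 regions named after the 8 genes, each labelled with the distance of its centre from the TSS in bp (minus is upstream). Points are libraries, with 3 of the Actg1 guide (red, left) and 3 of the GFP guide (blue, right) in each pair, and lines are means, for the GFP guide over 2 samples. The red points stand clear above the blue ones at Ccl5 +3321, Cxcl10 -3981, Cxcl10 -41, Cxcl10 +1668, Il6 -52, Lif +3937 and Lif +4591, and below them at Ccl2 -109, Ccl7 -1904, Ccl7 -26 and Cxcl5 -927, the last of which was not called.

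Among the CXC chemokine genes, Cxcl1 and Cxcl5 encode ligands of Cxcr2 that attract neutrophils. Cxcl1 (ENSMUSG00000029380, chr5:90891241-90893115, plus strand), a classical NF-kB target, had no called region. Its TSS region (chr5:90890849-90891706) had 242, 261 and 239 with the Actg1 guide and 242, 245 and 258 with the GFP guide, values that overlapped throughout. The log2 fold change was -0.02 with an SE of 0.0851 (limma adjusted p = 0.874). A region without a gene 14.8 kb upstream had 407, 466 and 432 with the Actg1 guide and 418, 466 and 413 with the GFP guide (0.02, limma adjusted p = 0.813). The region 7.34 kb downstream, which is nearer to Cxcl2, differed by 0.42 on the log2 scale (limma adjusted p = 0.0834), and that 9.36 kb upstream had -0.07. The call at 7.34 kb was made at 0.56 without Actg1 guide replicate 3 (limma adjusted p = 0.0323) and at 0.55 without GFP guide replicate 2 (0.0292).

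At Cxcl5 (ENSMUSG00000029371, chr5:90759360-90761624, plus strand) the 2 regions near the TSS did not pass, while a region on either side moved, in opposite directions. The TSS region (chr5:90759033-90759603, centre 42 bp upstream) had 98, 115 and 122 with the Actg1 guide and 121, 128 and 138 with the GFP guide (log2 fold change -0.24, limma adjusted p = 0.121), and 1 Actg1 guide library lay within the range of the GFP guide libraries. At 927 bp upstream the signals were 21, 27 and 28 with the Actg1 guide and 37, 40 and 32 with the GFP guide, without overlap, but the log2 fold change of -0.47 was not called (limma adjusted p = 0.113).

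The largest fall of the 40 regions was 27.8 kb upstream of Cxcl5 (chr5:90731288-90731798). It had 10, 15 and 5 with the Actg1 guide and 46, 46 and 50 with the GFP guide, about 12, 11 and 4 reads with the Actg1 guide and 56, 40 and 52 with the GFP guide. All Actg1 guide libraries were far below the others, a change of -2.27 on the log2 scale (SE 0.326, limma adjusted p = 3.2e-07). On the other side, 19.9 kb downstream and 5.87 kb from Pf4, a region (chr5:90778980-90779522) had 140, 141 and 147 with the Actg1 guide and 84, 79 and 66 with the GFP guide. It rose by 0.95 on the log2 scale (SE 0.126, limma adjusted p = 5.79e-08). Both calls held under all 14 alternatives. The next regions on either side of that rise, 18.5 and 21.1 kb downstream of the Cxcl5 TSS, had log2 fold changes of -0.22 and -0.28 and were not called (limma adjusted p = 0.411 and 0.138), and the remaining one, 17.1 kb upstream, had -0.38 (0.42).

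Cxcl10 (ENSMUSG00000034855, chr5:92346638-92348889, minus strand) encodes an interferon-induced ligand of Cxcr3 that attracts activated T cells, and 4 of its 5 regions rose with none lower. Its TSS region (chr5:92348706-92349153, centre 41 bp upstream) had 307, 342 and 289 with the Actg1 guide and 237, 226 and 225 with the GFP guide. The groups stood apart, and the log2 fold change was 0.45 (SE 0.0835, limma adjusted p = 2.77e-05), or 1.37-fold. Larger changes flanked it at lower signal. The region inside the gene, 1668 bp downstream of the TSS (chr5:92347097-92347344), had 48, 28 and 30 with the Actg1 guide and 7, 6 and 10 with the GFP guide (1.96, SE 0.299, limma adjusted p = 9.94e-07). Those signals stand for about 59, 21 and 24 reads with the Actg1 guide and 9, 5 and 10 with the GFP guide. With the GFP guide only replicate 3 reached the minimum of the filter on low values. The region thus passed that filter because of the Actg1 guide libraries, where it is high. The region 3981 bp upstream (chr5:92352782-92352957) had 55, 45 and 44 with the Actg1 guide and 20, 11 and 20 with the GFP guide (1.39, SE 0.225, limma adjusted p = 2.8e-06).

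These 3 Cxcl10 calls held under all 14 alternatives, and the 3 regions are consecutive in the table over 5.86 kb. They include the region inside the gene, which passed the filter because of the Actg1 guide libraries. This stretch, too, was picked after its values were seen. One more named region, 4943 bp upstream, had 40, 32 and 49 with the Actg1 guide and 27, 28 and 39 with the GFP guide, values that overlapped (0.27, limma adjusted p = 0.337). The region without a gene 33.0 kb upstream had 48, 57 and 49 with the Actg1 guide and 37, 31 and 33 with the GFP guide (0.60, SE 0.191, limma adjusted p = 0.0106). Without GFP guide replicate 3 its call ended at 0.58 (limma adjusted p = 0.0958). RefSeq places all 5 regions within the bounds of Art3, a gene that spans this locus. The authors' table names 4 of them after Cxcl10, and the region 33.0 kb upstream, which it assigns to no gene, is counted here by its distance.

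**Figure D3:**
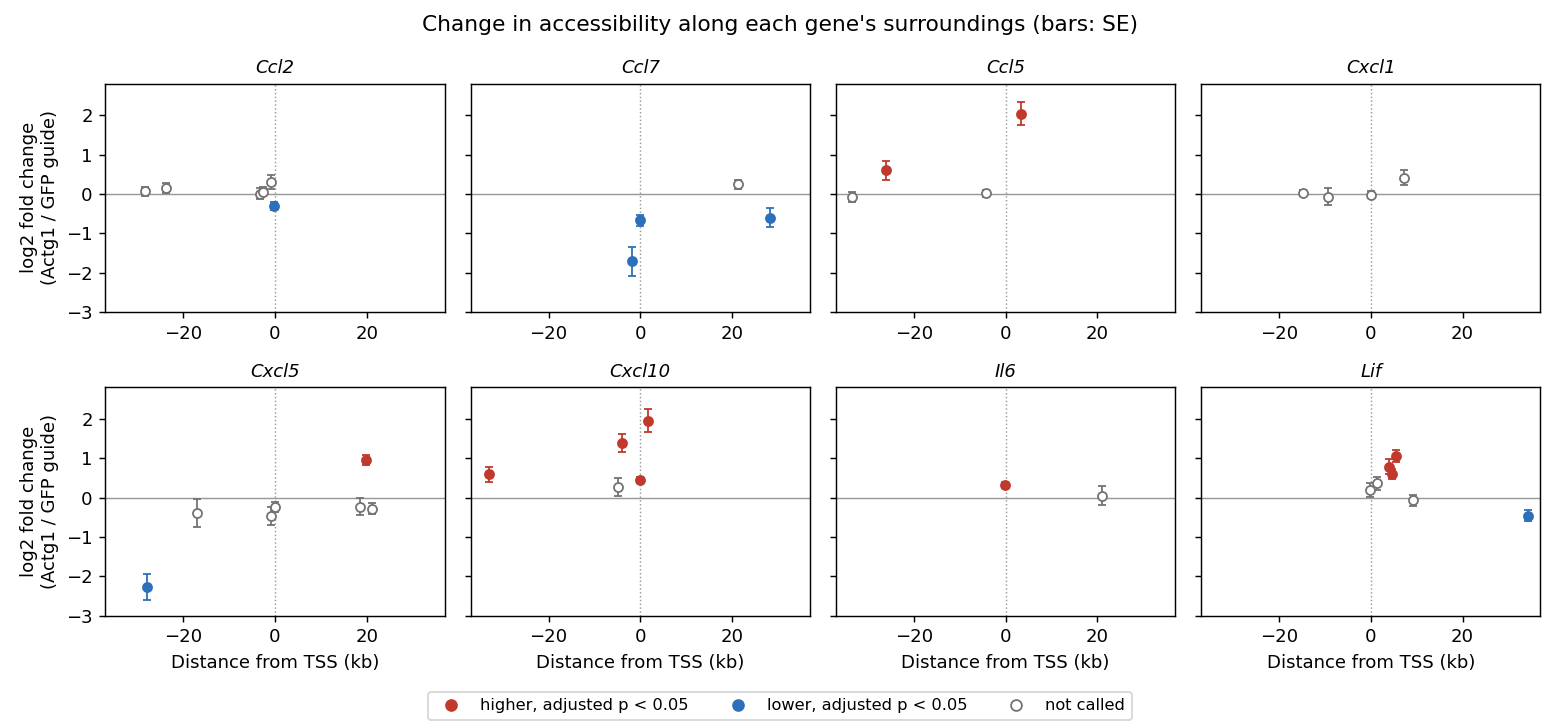
Log2 fold change of the Actg1 guide over the GFP guide (vertical axis, bars are SE) against the distance of the region's centre from the TSS in kb (horizontal axis, minus is upstream), in 1 panel for each gene. Red points are regions called higher (11), blue points regions called lower (6) and open points regions not called (22). The rises at Cxcl10 and Lif lie mostly within 10 kb of the TSS, and the largest fall is at the left end of the Cxcl5 panel.

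The IL-6 family cytokines were represented by Il6 and Lif. Il6 (ENSMUSG00000025746, chr5:30013114-30019981, plus strand) encodes interleukin-6, a mediator of the acute phase response. Its TSS region (chr5:30012591-30013533, centre 52 bp upstream) had signals of 412, 369 and 331 with the Actg1 guide and 296, 309 and 289 with the GFP guide. All Actg1 guide libraries lay above the GFP guide libraries, by 0.32 on the log2 scale (SE 0.0793, limma adjusted p = 0.00112). Without GFP guide replicate 3 the call ended at 0.29 (limma adjusted p = 0.111), and it ended with no trend (limma adjusted p = 0.117). The other region of the locus, 21.1 kb downstream and 4.38 kb from Tyms, had 23, 26 and 34 with the Actg1 guide and 22, 24 and 30 with the GFP guide (0.05, limma adjusted p = 0.887).

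Lif (ENSMUSG00000034394, chr11:4257557-4272514, plus strand) encodes leukaemia inhibitory factor, which keeps mouse embryonic stem cells undifferentiated. Its promoter region was not called, and 3 neighbouring regions inside the gene rose. At 264 bp upstream of the TSS (chr11:4257192-4257393) the signals were 57, 65 and 58 with the Actg1 guide and 51, 40 and 60 with the GFP guide (log2 fold change 0.19, limma adjusted p = 0.389). At 1333 bp downstream they were 72, 88 and 59 with the Actg1 guide and 47, 63 and 56 with the GFP guide (0.37, limma adjusted p = 0.0683). This region passed without Actg1 guide replicate 3 (0.51, limma adjusted p = 0.0216) and without GFP guide replicate 2 (0.48, 0.0241).

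The intragenic rises of Lif began 3937 bp downstream of the TSS (chr11:4261333-4261655), where signals were 52, 51 and 67 with the Actg1 guide and 28, 31 and 35 with the GFP guide. That difference was 0.79 on the log2 scale (SE 0.192, limma adjusted p = 0.000912). At 4591 bp (chr11:4261925-4262371) they were 121, 130 and 127 with the Actg1 guide and 82, 69 and 91 with the GFP guide (0.60, SE 0.127, limma adjusted p = 0.000174). At 5588 bp (chr11:4262969-4263322), a region the table assigns to no gene although it lies within Lif, they were 115, 95 and 117 with the Actg1 guide and 56, 54 and 48 with the GFP guide (1.06, SE 0.146, limma adjusted p = 1.18e-07). In each of these 3 regions the groups did not overlap, the regions follow each other over 1.99 kb, and each call held under all 14 alternatives. The Lif stretch was likewise picked after its values were seen.

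Farther along Lif none of the 40 regions was called higher. The region 9.25 kb downstream of its TSS, still inside the gene, had 107, 100 and 95 with the Actg1 guide and 109, 114 and 100 with the GFP guide (-0.07, limma adjusted p = 0.697). The last region, 34.4 kb downstream and past the gene's end (chr11:4291688-4292148), had 104, 108 and 85 with the Actg1 guide and 156, 136 and 125 with the GFP guide. It was lower without overlap, a change of -0.45 on the log2 scale (SE 0.128, limma adjusted p = 0.00389), a call that ended with no trend (limma adjusted p = 0.0761). Regions named after lincRNA genes here are not among the 40. One inside the bounds of Lif (chr11:4272154-4272421) had 0.46 and was not called (limma adjusted p = 0.0526). Past the gene, chr11:4276399-4276788 and chr11:4283696-4283928 were lower, at -0.78 and -0.86 (limma adjusted p = 0.00307 and 0.0127). These calls ended without GFP guide replicate 1 (-0.57) and without Actg1 guide replicate 2 (-0.67), respectively, and both without GFP guide replicate 3.

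Summed over all regions of a locus, the signal of Cxcl10 was 498, 504 and 461 with the Actg1 guide and 328, 302 and 327 with the GFP guide. That is 488 ± 23.3 with the Actg1 guide (SD, n = 3) and 321 ± 8.49 with the GFP guide (SD, n = 2), a ratio of 1.52 over 1291 bp of covered sequence. The SD of the GFP guide leaves out the spread between its replicates 1 and 2. The Cxcl10 sum includes the region inside the gene that passed the filter because of the Actg1 guide libraries. Il6 had sums of 398 ± 35.1 with the Actg1 guide and 322 ± 4.60 with the GFP guide (ratio 1.24, 1369 bp). Lif had 624 ± 14.8 with the Actg1 guide and 516.5 ± 2.12 with the GFP guide (ratio 1.21, 2564 bp), and Ccl5 had 407 ± 11.8 with the Actg1 guide and 367 ± 2.47 with the GFP guide (ratio 1.11, 1886 bp). These 4 loci were higher in each Actg1 guide library than in any GFP guide library, which at Ccl5 rested on low regions. Without the 2 Ccl5 regions that reach a signal of 10 in Actg1 guide libraries only, 3321 and 20796 bp downstream of the TSS, the sums were 345, 367 and 377 with the Actg1 guide and 360, 349 and 357 with the GFP guide. Those sums overlapped (ratio 1.02). Ccl7 had sums of 274, 243 and 252 with the Actg1 guide and 276, 336 and 310 with the GFP guide (ratio 0.832, 1563 bp). Cxcl5 had 389, 414 and 415 with the Actg1 guide (406 ± 14.7) and 418, 427 and 435 with the GFP guide (429 ± 8.84, ratio 0.947, 2616 bp). At these loci each Actg1 guide library lay below every GFP guide library. The margin was narrow, with 274 next to 276 at Ccl7 and 415 next to 418 at Cxcl5. At each of these loci the order rested on a low region. That of Ccl7, 1904 bp upstream, had 10, 12 and 4 with the Actg1 guide and 26, 26 and 31 with the GFP guide. That of Cxcl5, 27.8 kb upstream, had 10, 15 and 5 with the Actg1 guide and 46, 46 and 50 with the GFP guide. Sums that leave out these regions overlap between the groups. At Cxcl1 the sums were 768 ± 48.0 with the Actg1 guide and 752 ± 1.77 with the GFP guide (ratio 1.02, 2706 bp), and at Ccl2 697 ± 24.4 with the Actg1 guide and 699 ± 13.1 with the GFP guide (ratio 0.997, 2297 bp). The groups overlapped at both. For sums over other loci the share without overlap was not counted. Among single regions it was 50.8% of all tested regions. The regions are the same in every library, so the covered length does not differ between the groups.

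**Figure D4:**
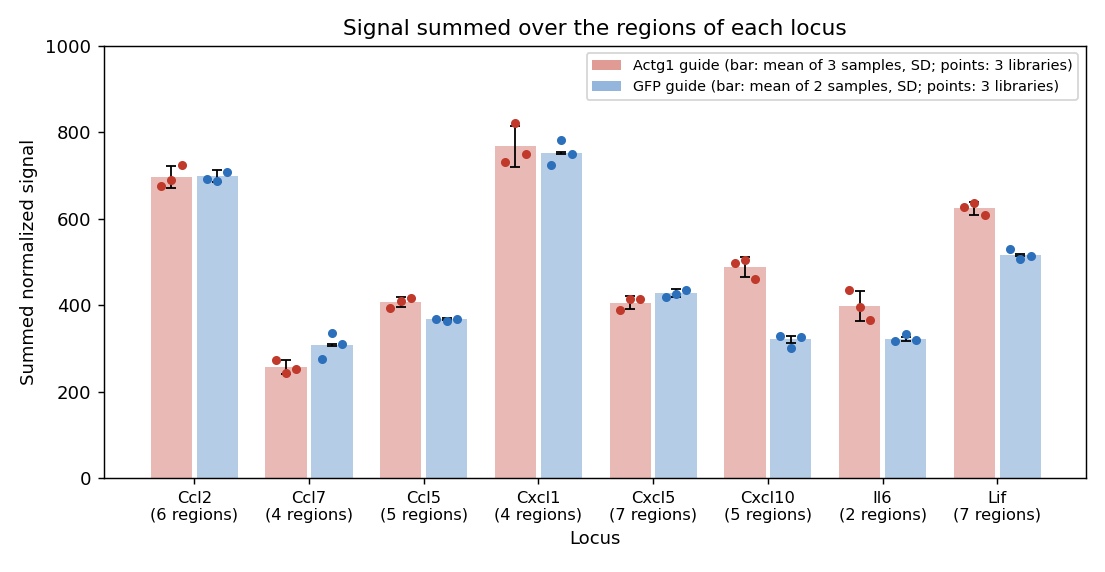
Normalized signal summed over the regions of each locus (vertical axis, starting at 0), with the Actg1 guide left of the GFP guide in each pair. Points are the 3 libraries of a group, bars the mean and error bars the SD, over 3 samples for the Actg1 guide and 2 for the GFP guide. Cxcl10 has the widest gap between the groups, and Ccl2 and Cxcl1 have close to equal bars.

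Levels were compared between genes per length, as signal per 100 bp of the region nearest the TSS. This was done for the 7 genes with a region within 1 kb. That of Lif ends upstream of its TSS, while the others contain theirs. Lengths ran from 202 bp at Lif to 943 bp at Il6, and the part of length in the order was not tested. With the Actg1 guide the order was Cxcl10 (69.8 ± 6.02, SD, n = 3), Ccl2 (41.0 ± 2.89), Il6 (39.3 ± 4.30), Lif (29.7 ± 2.16), Cxcl1 (28.8 ± 1.39), Ccl7 (19.9 ± 2.38) and Cxcl5 (19.6 ± 2.16). The library ranges of neighbours in that order overlapped, except those of Cxcl10 and Ccl2, of Il6 and Lif, and of Cxcl1 and Ccl7. With the GFP guide the 3 libraries ranged from 47.5 to 56.7 at Ccl2, from 50.2 to 52.9 at Cxcl10, from 29.7 to 37.1 at Ccl7 and from 30.7 to 32.8 at Il6. They ranged from 28.2 to 30.1 at Cxcl1, from 19.8 to 29.7 at Lif and from 21.2 to 24.2 at Cxcl5. Cxcl10 and Ccl7 did not overlap there, nor did Il6 and Cxcl1, while the other neighbours did. Ccl7 thus stood behind Il6, Lif and Cxcl1 by its mean with the Actg1 guide and ahead of them with the GFP guide.

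For 3 TSS regions, the assigned regions with the most similar profile over the 6 libraries were looked up among 14952 others, by the Euclidean distance between log2(signal + 1) values centred on their means. The profile of Ccl2 was nearest to Egln1 (distance 0.0761), Rpl36a (0.0894) and Rpl28 (0.09). Il6 was near to Tmem107 (0.0746) and Slc4a2 (0.0835), and Cxcl10 to Adar (0.085), Ubb (0.0973) and Idh3a (0.0987). This likeness covers 6 libraries in 2 groups and was not tested.

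Other genes of the pathway were counted in 8 lists holding 116 genes, of which 71 had at least 1 region. Of their 108 tested regions 19 were higher and 25 lower, or 40.7%, near the background of 41.3%. For genes of these lists named below, values are those of the tested region nearest the TSS. It lay more than 1 kb from the TSS at Cxcl2, Ccl4, Ccl28, Cxcl17, Cntf, Lifr, Il16, Csf3, Cxcr2, Ackr3 and Ccr3. At the other named genes it lay within 1 kb. Other CC chemokines had 3 higher and 3 lower of 10, and other CXC and CX3C chemokines 3 higher and 2 lower of 12. At Cxcl2, which lies next to Cxcl1 and encodes another Cxcr2 ligand, the region nearest the TSS had 74, 81 and 78 with the Actg1 guide and 36, 40 and 30 with the GFP guide (log2 fold change 1.18, limma adjusted p = 3.99e-07). Ccl4, which attracts monocytes and T cells, rose by 1.06 (limma adjusted p = 0.000797), and Ccl9, a macrophage chemokine of mice, had -0.89 (3.64e-05). Ccl28 had signals of 6, 4 and 6 with the Actg1 guide and 19, 14 and 12 with the GFP guide. It passed the filter on low values through the GFP guide libraries alone, so a difference between the groups was built in. Its log2 fold change was -1.27, that of Cxcl17 0.32 and that of Cx3cl1 -0.29. These last 3 calls ended without GFP guide replicate 3 (limma adjusted p = 0.0974, 0.107 and 0.398), that of Ccl28 also without GFP guide replicate 1 (0.0546), and those of Cxcl17 and Cx3cl1 also without GFP guide replicate 2 (0.12 and 0.0963), Actg1 guide replicate 1 (0.0555 and 0.122) and Actg1 guide replicate 3 (0.0616 and 0.0646). Cxcl17 was not called without Actg1 guide replicate 2 either (0.0782).

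Of the other IL-6 family ligands, 2 of 5 regions were higher and 0 lower, and of their receptors and signalling genes 3 were higher and 4 lower of 16, where 20.6% of all regions were higher and 20.7% lower. Clcf1, a cytokine that signals through gp130, had 793, 833 and 853 with the Actg1 guide and 668, 695 and 690 with the GFP guide (log2 fold change 0.27, limma adjusted p = 4.7e-05). Il6ra, the receptor subunit that binds interleukin-6, had 748, 727 and 759 with the Actg1 guide and 592, 594 and 534 with the GFP guide (0.40, limma adjusted p = 1.67e-07). Cntf had 0.35 and Lifr, the Lif receptor, -0.91 (limma adjusted p = 0.0125 and 0.00986). Without GFP guide replicate 3 both calls ended (limma adjusted p = 0.073 and 0.251), as they did without Actg1 guide replicate 2 (0.0526 and 0.059). That of Cntf also ended without Actg1 guide replicate 1 (0.0513) and without GFP guide replicate 1 (0.0928).

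Other secreted cytokines had 3 regions higher and 6 lower of 19, beside the same background. Il15, which sustains natural killer and T cells, had 112, 120 and 105 with the Actg1 guide and 159, 185 and 178 with the GFP guide (-0.64, limma adjusted p = 1.27e-05). Il16 had -1.08, a call that ended without GFP guide replicate 3 (limma adjusted p = 0.0753), and Csf3, which drives neutrophil formation, 0.73, a call that ended without Actg1 guide replicate 2 (0.0516). Chemokine receptors had 2 higher and 2 lower of 10, none within 1 kb of a TSS. The region of Cxcr2 4642 bp from its TSS had 12, 15 and 10 with the Actg1 guide and 2, 2 and 1 with the GFP guide, and it too passed the filter on low values through the Actg1 guide libraries alone. Ackr3, a scavenger receptor, had -1.31 (limma adjusted p = 7.46e-06). Ccr3 had 0.55, and its call ended without Actg1 guide replicates 1 and 3 (limma adjusted p = 0.0851 and 0.112) and without GFP guide replicates 2 and 3 (0.0582 and 0.134).

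Receptors and adaptors of IL-1, TNF and toll-like receptor signalling had 1 region higher and 4 lower of 16, of which 13 were promoter regions. The 4 lower ones were among these, where the background at promoter regions was 18.7% lower. Traf6 had -0.32, Il1rap -0.26 and Tlr4 -0.25, and each call ended without GFP guide replicate 3 (limma adjusted p = 0.0719, 0.166 and 0.103). RNA-binding regulators of cytokine mRNAs had 2 higher and 4 lower of 20, where 20.6% of all regions were higher and 20.7% lower. Khsrp, which promotes decay of AU-rich mRNAs, had -0.16 and was not called without GFP guide replicate 3 (limma adjusted p = 0.123).

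The cell type was checked at promoters. Of 11 fibroblast markers 9 had a promoter region, and their signal summed to between 3352 and 3472 with the Actg1 guide and between 3746 and 3855 with the GFP guide, with 1 of 12 regions higher and 5 lower, where 14.0% of all promoter regions were higher and 18.7% lower. Of 10 macrophage and leukocyte markers, Ptprc, Adgre1, Csf1r, Spi1, Itgam, Fcgr3 and Cx3cr1 had no promoter region among those analysed here, and the other 3 (Cd14, Cd68 and Lyz2) summed to between 348 and 403 with the Actg1 guide and between 264 and 286 with the GFP guide. Cd14 and Cd68 were called higher. Lyz2 was too low to be tested, with 3, 4 and 5 with the Actg1 guide and 2, 5 and 7 with the GFP guide. Among the fibroblast markers the higher region was at Col1a1, and the lower ones were at S100a4, Pdgfrb, Twist1 and Col1a2. Of 6 epithelial markers 1, Krt8, had a promoter region, which was not called, and of 6 endothelial markers 0 did. The part of these marker differences in the chemokine results was not tested.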

How the data were processed

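ATAC-seq libraries of 2 groups with 3 libraries each were used. The authors deposited 1 table with a whole-number signal per region and library. The submitters' processing notes name mm10 as the build. They list featureCounts, STAR 2.7.10a, Trimmomatic 0.39, DESeq, DESeq2 1.36.0 and Picard 3.0.0 as tools, without roles. For the peak caller, the merging of peaks, the Tn5 offset and the formula behind the normalized signal, the details were not given in the sources used here. In the table, small values show that the signal is a read number multiplied by a factor per library and rounded: some whole numbers recur too often or never occur. From this pattern 1 read was worth 0.807 to 1.35 signal units, which gave the estimated reads. On simulated columns the factor was recovered.

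GFP guide replicates 1 and 2 gave a chi-square per region of 1.01 on estimated reads (p = 0.143, 59507 regions), where other pairs of 1 group gave 1.03 to 1.12. They were averaged before the fit. The filter on low values asked for a signal of 10 or more in 3 or more libraries. The linear model of limma 3.58.1 (R 4.3.3) used log2(signal + 1) and a mean-variance trend; this scale understates changes of low regions. P-values were adjusted over all 61327 regions by the Benjamini-Hochberg method, and the function was tested on simulated data with known changes. The 8 genes, the pathway and marker lists and the settings were chosen with earlier results of these data known. Signals are printed for every region named after a gene and for regions without a gene that were called or strongest in their locus, and for other genes up to 3 of each list with the largest called change, of which a few genes are not reported here. Distances are from the table's TSS, coordinates start from 1 as the table prints them, and gene bounds besides those of the table are from RefSeq. Deviations of same-numbered libraries of the groups correlated at 0.014 to 0.025, and those of different-numbered ones at -0.017 to -0.000. All were small, so the main fit used no pairing, and a replicate block was among the alternatives. Alternatives were the 6 libraries as separate samples, with and without a replicate block, other pseudocounts, filters and scalings, no trend, and leaving out each library.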

Additional observations from a re-analysis of the deposited data

How the results depend on the processing

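Of the 17 calls at the 8 genes, 10 held under all 14 alternatives, and the other 7 are given with their values above. With no mean-variance trend the calls of Ccl2 -109, Ccl7 +28220, Ccl5 -26062, Il6 -52 and Lif +34361 ended (limma), and 3 regions were called lower instead of 6. Without GFP guide replicate 3, which leaves 1 GFP guide sample that is assumed to vary like the other group, 8 were higher and 3 lower. Over all leave-outs 8 to 13 were higher and 3 to 6 lower. Genome-wide the leave-outs gave 7381 to 12490 higher and 5412 to 12216 lower, and no trend gave 8120 lower. The other pathway genes had 9 to 19 regions higher and 10 to 24 lower in the leave-outs, and 11 higher and 12 lower with no trend. Among the pathway genes named above, no trend ended the calls of Cxcl17, Cx3cl1, Cntf, Clcf1, Lifr, Csf3, Il1rap, Tlr4 and Khsrp, and cyclic loess scaling that of Ccr3.

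With the 6 libraries as separate samples, 15 of the 39 regions were higher and 7 lower. The replicate block gave the same member counts, and genome-wide 14322 higher and 14403 lower. With or without the block Ccl2 -907, Ccl7 +21378, Cxcl1 +7344, Cxcl5 -927 and Lif +1333 were added to the calls, with log2 fold changes of 0.39, 0.25, 0.44, -0.51 and 0.38. At 7 regions never called the sign was not stable. Leaving out a library took Ccl2 -3162 to between -0.095 and 0.127, Ccl5 -33456 to between -0.159 and 0.0198, Ccl5 -4355 to between -0.0537 and 0.059, Cxcl1 -14766 to between -0.027 and 0.0704, Cxcl1 -9362 to between -0.145 and 0.131, Cxcl1 +37 to between -0.0594 and 0.0213 and Il6 +21052 to between -0.0997 and 0.238. Cyclic loess scaling gave -0.012 at Ccl2 -3162 and -0.0056 at Il6 +21052, and equal totals gave 0.00091 at Cxcl1 +37. Separate libraries, with or without the replicate block, gave -0.0092 at Ccl5 -4355 and 0.0016 at Cxcl1 -9362. Under the alternatives added after the data were seen, summed locus signals moved by less than the spread between libraries, except at Ccl5, whose ratio was 1.02 without regions at the filter's minimum in 1 group only. Low regions rest on few reads, and the cause of the lost calls was not tested.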
